A study of Mus musculus with 21 samples.

Results

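RNA sequencing of mouse cells that expressed histone H2B with glutamate E76 changed to glutamine (E76Q) was compared with sequencing of the same cells with wild-type H2B (WT). The comparison covered every gene with a mean of at least 1 TPM (a measure of transcript abundance per unit of length, scaled to a fixed total per library) over the 6 libraries, 11983 of the 24091 genes in the table. Of the remainder, 5505 genes were at 0 in all 6 libraries and 6603 had a lower mean. Loxl2 (1.0035 TPM) lay just inside the threshold, and Zbed5 (0.99703 TPM) lay just outside it. Both groups were C3H/10T1/2 cells, an established line of mesenchymal progenitors from mouse embryo, grown in medium with serum and given no further treatment in the labels. There were 3 libraries of E76Q and 3 of WT, called biological replicates in the series' design. The series also held 3 libraries each of 5 other H2B substitutions, E76K, E71K, E71Q, E113K and E113Q, for 21 libraries in 7 groups. The same 3 WT libraries served as the reference of every mutant. How the H2B was delivered, and whether a genotype was 1 clone or a mixed population, is not given in the sources used here. Differences between cell populations and between H2B forms are therefore not separable here.

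H2B pairs with H2A, and the pair is held against H3 and H4 to complete the nucleosome, the particle around which DNA is wrapped. Glutamate E76 of H2B lies where the H2A-H2B pair meets histone H4. Glutamine has nearly the shape of glutamate without its negative charge, whereas lysine, the E76K substitution, carries a positive charge. C3H/10T1/2 cells are used as a model of mesenchymal differentiation because they can be driven toward cartilage, bone, fat and smooth muscle.

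Libraries of a group were close to each other. Over genes, Pearson's r between libraries (on log2(TPM + 1)) was 0.9652 to 0.9676 among the E76Q libraries, 0.9703 to 0.9762 among the WT libraries and 0.8656 to 0.8769 between the groups. The median SD of a gene over 3 libraries was 0.087 log2 units in E76Q and 0.0765 in WT, against 0.334 in E71K. Of the other mutants 4 libraries lay apart from their mates: replicate 3 of E71K, E76K and E113Q and replicate 1 of E71Q. Replicate 3 of E71K was the closest library outside the group for all 3 E76Q libraries. A single locus, Mir6236, held 9.85%, 9.02% and 14.96% of all TPM in the E76Q libraries and 4.39%, 7.26% and 3.77% in the WT libraries, and since TPM sum to a fixed total, it takes that share from all other genes. TPM does not retain the number of reads: depth is unknown, and no counting interval is given. Whether reads of an introduced H2B, if any, entered the values of the cell's own H2B genes was not tested.

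The labelled cell type was checked against 15 mesenchymal progenitor markers, of which 14 were tested, none rose and 6 fell. Their summed level was 7339 to 7862 TPM in E76Q and 7968 to 8056 TPM in WT, and the intermediate filament gene Vim, at 4439 to 5356 TPM in the 6 libraries, made up most of it. Pdgfra, a growth factor receptor of these cells, stood at 22.4 ± 0.913 TPM in WT and 24.3 ± 0.615 TPM in E76Q (SD, n = 3 here and below) and did not pass the test. Thy1, a surface antigen by which mesenchymal cells are often selected, had 66.0, 65.5 and 66.4 TPM in the WT libraries and 0.450, 0.622 and 0.344 TPM in the E76Q libraries. Its groups did not overlap, and all E76Q libraries were below 1 TPM (log2 fold change -5.51 ± 0.19, SE; limma adjusted p = 3.59e-13). Alcam and Eng, the other surface markers with large falls, went from 118 ± 4.33 to 15.01 ± 0.556 TPM and from 20.7 ± 1.35 to 1.78 ± 0.476 TPM. Pdgfra, Pdgfrb, Ly6a, Vcam1 and Itgb1 were each higher in every E76Q library than in any WT library without passing the test: Pdgfrb, another growth factor receptor, stood at 75.5 ± 3.33 TPM in WT and 109 ± 4.70 TPM in E76Q, and Ly6a, the surface antigen Sca-1, at 1398 ± 39.0 and 1959 ± 187 TPM. Under the other scalings, with each chromosome centred at 0, in a fit of only the 6 libraries or without the 4 libraries that lay apart, 1 to 4 markers passed as rises. Nt5e, also on the list, was below 0.3 TPM in all 6 libraries. Of the 14 epithelial markers, 3 were tested and 3 fell (Cdh1, Krt8 and Krt7), with a summed level of 1.82 to 2.20 TPM in E76Q and 16.7 to 18.6 TPM in WT, and Epcam, Cldn3 and Cldn4 were listed at 0 in all 6. Of the 10 macrophage and blood cell markers 3 were tested and Lyz2, lysozyme, rose from 15.4 ± 1.60 to 41.4 ± 1.38 TPM, while Ptprc and Tyrobp were below 0.4 TPM throughout. The sum of that list was 55.8 to 60.4 TPM in E76Q and 31.3 to 32.1 TPM in WT. Of the 9 endothelial markers only Vwf was tested, which did not pass the test, and their sum stayed below 2.5 TPM. In these bulk samples, fewer cells of a type and less RNA per cell cannot be told apart.

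E76Q differed from WT in 5535 of the 11983 genes, which is 46.2% (limma on log2(TPM + 1), Benjamini-Hochberg adjusted p under 0.05, two-sided). Genes that passed are called risen or fallen below, and their changes are given as log2 fold changes of TPM + 1, a scale that understates the change of genes near 0. There were 2713 risen genes (22.6% of those tested) and 2822 fallen genes (23.6%). Changes of at least 2-fold that passed the test numbered 1990 (16.6%), 1027 of them upward and 963 downward. Changes of at least 8-fold were rarer, 88 upward and 109 downward. The 3 E76Q libraries all lay above the 3 WT libraries in 4563 genes (38.1%) and all lay below them in 4312 (36%). The balance of directions depended on the scaling: risen genes made up 49% of the calls as deposited and 60.5% when Mir6236 was left out and the libraries were rescaled, which moved the median log2 fold change of all genes from 0.03 to 0.12. No call turned to the opposite direction under any setting tried. With only the 6 libraries in the fit, 21 of the genes named below that did not pass as deposited passed.

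**Figure D1:**
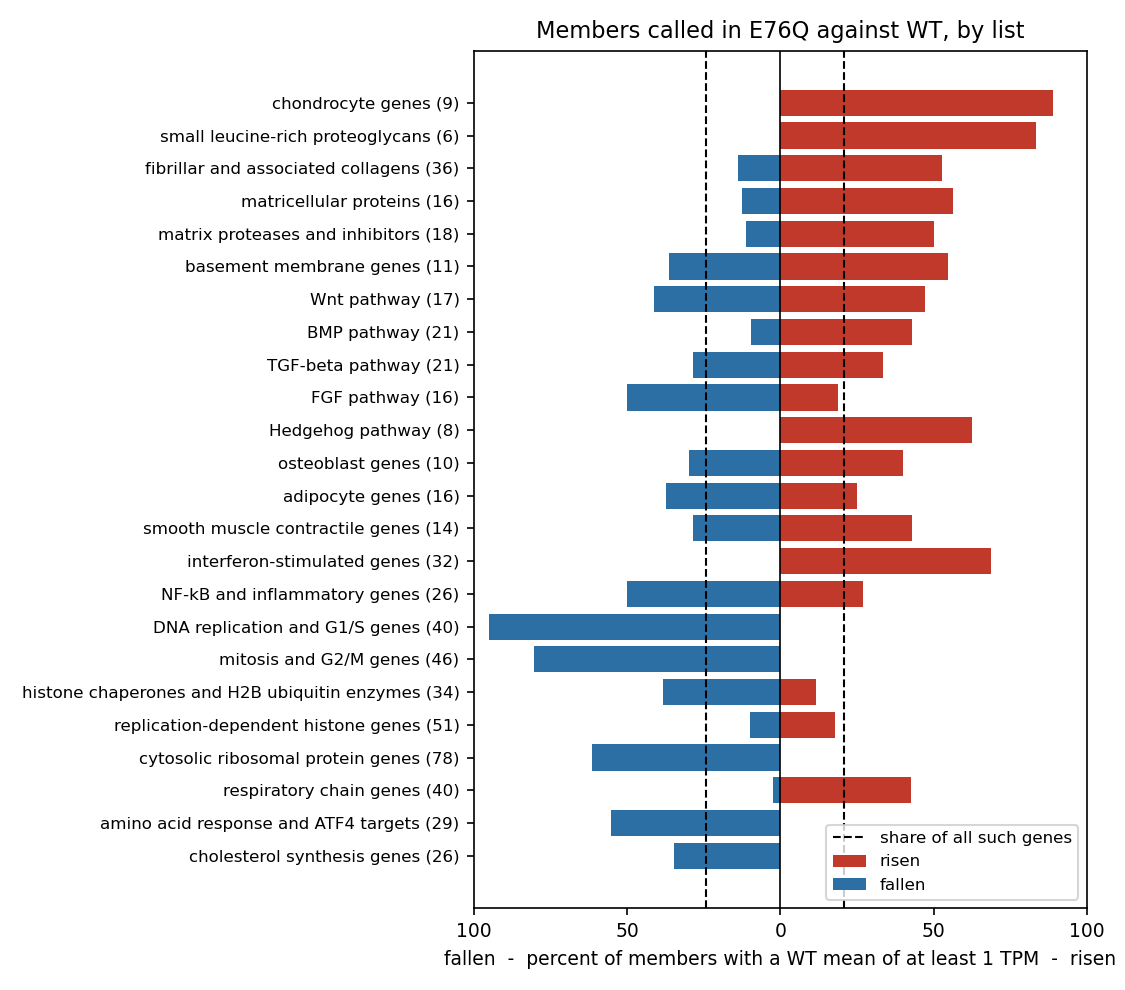
Share of members risen (right, red) and fallen (left, blue) in E76Q against WT for 24 gene lists, over the members whose WT mean alone reached 1 TPM, with their number in brackets. The dashed lines mark the shares over all 11557 such genes, 20.9% risen and 24.4% fallen. Chondrocyte genes and small leucine-rich proteoglycans have the longest red bars, and both cell cycle lists the longest blue bars.

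Cartilage genes were higher in E76Q. Cartilage is made by chondrocytes, whose program is set by the transcription factor SOX9 together with its partners SOX5 and SOX6, which switch on the collagens and proteoglycans of the matrix. Of 33 chondrocyte genes listed, 32 were in the table and 18 were tested, and the other 14 had means under 1 TPM. A gene that is low in WT enters the comparison only if it is high in E76Q, so the members are counted by their WT level. Of the 9 tested members with a WT mean of at least 1 TPM, 8 rose and none fell, against 20.9% risen of all 11557 genes with such a mean, and their median log2 fold change was 1.52, against -0.000256 for all of those genes. The other 9 averaged under 1 TPM in WT (Sox5, Sox6, Col9a2, Matn4, Chadl, Cnmd, Ucma, Cytl1 and Fgfr3) and entered only through their level in E76Q, so their values are a description. For the other lists the counts are over all tested members unless said otherwise, and the plot of list shares leaves out those that entered through E76Q alone. In every list a rise from a WT mean under 1 TPM is a description for the same reason. Each such count is to be read beside the shares of all 11983 genes, 22.6% risen and 23.6% fallen. The lists, the chondrocyte list among them, were chosen with earlier results of these data known. Their shares beside those of all genes are therefore a description.

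All 3 transcription factors rose, of which Sox5 and Sox6 entered only through their level in E76Q. Sox9 had 50.7, 60.1 and 54.8 TPM in the WT libraries and 151, 167 and 162 TPM in the E76Q libraries (log2 fold change 1.52 ± 0.21, adjusted p = 1.45e-05). Sox6 went from 0.645 ± 0.0368 to 11.9 ± 1.12 TPM. For Sox5 the level was 0.0531 ± 0.00982 TPM in WT and 3.62 ± 0.354 TPM in E76Q, and its E76Q libraries were above all 18 other libraries of the series. The 3 factors were higher in every E76Q library than in any WT library, from very different starting levels.

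Most fibrillar and associated cartilage collagens rose as well. Col2a1, the main collagen of cartilage (chr15:97975602-98004724, GRCm38.p6 here and below), had 44.4, 42.1 and 43.6 TPM in the WT libraries and 436, 478 and 458 TPM in the E76Q libraries. Each E76Q library lay far above each WT library (log2 fold change 3.37 ± 0.29, adjusted p = 6.84e-08). Col11a1, which sets the diameter of cartilage fibrils (chr3:114030479-114220756), had 8.54, 7.26 and 8.85 TPM in the WT libraries and 165, 184 and 195 TPM in the E76Q libraries. The type IX collagens coat those fibrils, and Col9a1 (chr1:24177589-24252738) rose from 33.0 ± 1.14 to 253 ± 11.7 TPM. Col9a2 and Col9a3 reached only 2.34 ± 0.292 and 7.02 ± 1.13 TPM, and the call of Col9a3 was lost without any of 5 libraries (adjusted p = 0.0584 to 0.0853), all but E76Q replicate 3. Chadl, a leucine-rich protein that binds collagen, was at 45.5, 51.7 and 51.1 TPM in E76Q and below 0.2 TPM in WT. Comp, which also binds collagen, rose from 1.82 ± 0.317 to 6.57 ± 0.579 TPM and Matn2, a matrilin, from 29.7 ± 1.36 to 56.1 ± 3.84 TPM. The call of Matn2 was lost without E76Q replicate 2 or 3 or WT replicate 1 or 3 (adjusted p = 0.0519 to 0.0607). Col11a2 (2.57 ± 0.438 against 2.60 ± 0.374 TPM) and Matn4 (0.827 ± 0.241 against 1.62 ± 0.0678 TPM) did not pass the test.

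Secreted proteins and a receptor of cartilage completed the list, and all 5 passed the test as rises. Of these, Ucma, Cytl1, Fgfr3 and Cnmd entered only through their level in E76Q. Scrg1 had 2.01, 1.49 and 2.47 TPM in the WT libraries and 96.6, 92.0 and 80.8 TPM in the E76Q libraries. Ucma, a protein of growth plate cartilage, had 0.145, 0.286 and 0 TPM in the WT libraries and 18.5, 22.5 and 19.1 TPM in the E76Q libraries, but with a pseudocount of 5 it did not pass (adjusted p = 0.066). Cytl1 stood at 12.7, 11.5 and 12.98 TPM in E76Q, and each WT library listed it at 0. Fgfr3, a growth factor receptor that restrains the growth plate, went from 0.0403 ± 0.0355 to 13.1 ± 0.926 TPM. The largest rise of any gene on the log2(TPM + 1) scale was that of Cnmd, chondromodulin, an inhibitor of vessel growth in cartilage, with 0.138, 0 and 0.206 TPM in the WT libraries and 159.9, 161 and 139.6 TPM in the E76Q libraries. None of the 5 genes had overlapping E76Q and WT groups, and 4 of them were below 0.3 TPM in every WT library. Cnmd was not high in E76Q alone: it averaged 112 TPM in E71K and 109 TPM in E71Q, beside 153 TPM in E76Q. The highest library outside E76Q had 310 TPM. In E76K, E113K and E113Q Cnmd averaged 4.04, 0.0494 and 8.17 TPM. Chadl averaged 26.6 TPM in E71K and 14.6 TPM in E71Q, beside 49.4 TPM in E76Q. Compared with E76K, 14 of the 18 chondrocyte genes were higher in E76Q (8.93% of all genes were) and Matn2 was lower (22.8% of all). Compared with the mean of the other 5 mutants 13 were higher (10.7% of all) and none was lower (15.9% of all). Both counts include the 9 genes that entered only through their level in E76Q, so they are a description.

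**Figure D2:**
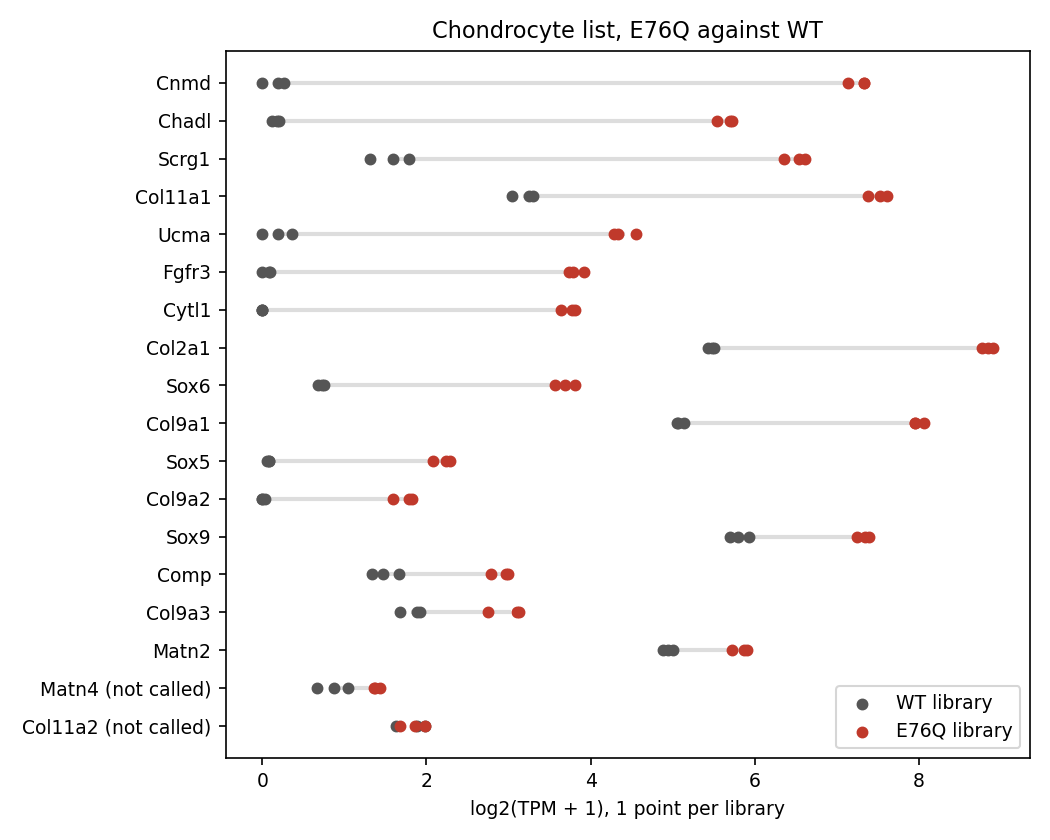
Values of the 18 tested chondrocyte genes in each library, as log2(TPM + 1) on the horizontal axis, with WT libraries in grey and E76Q libraries in red and a line joining the group means. The 2 groups overlap only in Col11a2, and Cnmd shows the widest gap, from at most 0.207 TPM in WT to at least 139.6 TPM in E76Q.

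A microRNA locus of cartilage followed. Mir140 lies in an intron of Wwp2, and its microRNA is known for its abundance in chondrocytes. These were not small RNA libraries, so the values at Mir140 describe fragments mapped to the hairpin locus and not the mature microRNA. Mir140 (chr8:107551244-107551313) was listed at 0 in every WT library and at 103, 132 and 79.0 TPM in E76Q. With a pseudocount of 0.1 its rise was larger than that of Cnmd. The host Wwp2, a ubiquitin ligase, had 57.7, 62.0 and 56.9 TPM in the WT libraries and 252, 251 and 239 TPM in the E76Q libraries (log2 fold change 2.05 ± 0.18, adjusted p = 5.35e-08). A pair of other microRNA loci were listed at 0 in all WT libraries and above 0 in all E76Q libraries among the 20 largest rises: Mir24-2 had 85.9, 44.0 and 21.9 TPM and Mir22 had 46.7, 7.51 and 30.2 TPM. Both spread more between E76Q libraries than Mir140 did. Mir22 lost its call without E76Q replicate 1 (adjusted p = 0.0713) or 3 (0.0579), and Mir24-2 without any library but E76Q replicate 3 (0.0519 to 0.0707). Their mature sequences from RefSeq (GRCm38.p6) are shown because the loci are among the largest rises, with the seed (bases 2 to 8, by which targets are recognised) in capitals.
miR-140-3p chr8:107551288-107551308 (+ strand): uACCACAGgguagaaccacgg
miR-24-3p chr8:84208875-84208896 (+ strand): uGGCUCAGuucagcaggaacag
miR-22-3p chr11:75463772-75463793 (+ strand): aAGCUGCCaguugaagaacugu
The 3 seeds differ from each other. None of the 3 loci passed the test against the mean of the other 5 mutants (adjusted p = 0.183 for Mir140, 0.225 for Mir24-2 and 0.715 for Mir22). Mir140 averaged 116 TPM in E71Q, 73.5 TPM in E71K and 9.88 TPM in E76K, beside 105 TPM in E76Q.

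The wider collagen matrix also rose. Small leucine-rich proteoglycans bind collagen fibrils and set their width and spacing. Of 13 listed, 8 were tested and 7 rose, with none fallen. Over the 6 with a WT mean of at least 1 TPM, 5 rose and the median was 1.85. Ogn, osteoglycin, had 46.9, 49.6 and 45.3 TPM in the WT libraries and 355, 390.1 and 397 TPM in the E76Q libraries. Aspn, asporin, had 16.4, 17.7 and 14.5 TPM in the WT libraries and 148, 159.6 and 165 TPM in the E76Q libraries. Both were higher in every E76Q library than in any WT library, Aspn by 3.21 ± 0.45 on the log2 scale. Prelp rose from 60.5 ± 4.36 to 292 ± 15.5 TPM and Bgn, biglycan, from 1177 ± 56.9 to 3197 ± 119 TPM, the highest level on the list. Fmod, fibromodulin, was at 109, 123 and 112 TPM in E76Q and below 0.5 TPM in every WT library, and no library of another group exceeded 58.4 TPM. Omd rose from 4.72 ± 1.19 to 13.01 ± 0.662 TPM and Lum, lumican, from 0.400 ± 0.236 to 4.31 ± 0.802 TPM, a call that was lost whichever library was left out (adjusted p = 0.0747 to 0.113). Dcn, decorin, did not pass the test (41.3 ± 3.02 against 73.1 ± 2.47 TPM). Ogn, Omd and Aspn lie on chromosome 13, whose genes had a median 0.28 above that of the genome in E76Q on the log2 scale.

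Of 43 collagens and collagen-processing enzymes, 38 were tested, 21 rose and 5 fell. Over the 36 with a WT mean of at least 1 TPM, 19 rose and 5 fell. Col1a1, the main collagen of fibroblasts and bone, was level at 1275 ± 50.6 TPM in WT and 1289 ± 61.6 TPM in E76Q (adjusted p = 0.926). Col5a2, a minor partner of type I collagen, rose from 67.7 ± 3.22 to 295 ± 12.6 TPM. Plod2, which hydroxylates the lysines through which collagens are cross-linked, had 8.99, 9.27 and 8.94 TPM in the WT libraries and 117, 122 and 125 TPM in the E76Q libraries. Its groups lay far apart (log2 fold change 3.60 ± 0.41, adjusted p = 2.02e-06). Pcolce2, an enhancer of procollagen cleavage, rose from 53.1 ± 1.999 to 247 ± 9.36 TPM. Col18a1, a basement membrane collagen, fell from 58.8 ± 1.82 to 5.23 ± 0.0839 TPM and Col8a1, a network collagen, from 26.4 ± 1.67 to 3.69 ± 0.450 TPM. The fibrillar collagens thus had 7 risen and none fallen of 10, and the fibril-associated, beaded and network collagens had 7 risen and 3 fallen of 13.

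Matricellular proteins, which sit in the matrix and act on cells, had 10 risen and 2 fallen of 17 tested (21 listed). Over the 16 with a WT mean of at least 1 TPM, 9 rose and 2 fell. Fn1, fibronectin (chr1:71585473-71653280), had 288, 297 and 296 TPM in the WT libraries and 2090.2, 2323 and 2717 TPM in the E76Q libraries. The rise was about 8-fold (log2 fold change 3.003 ± 0.36, adjusted p = 3.47e-06). Thbs1, thrombospondin 1, had 4.31, 4.47 and 4.92 TPM in the WT libraries and 81.4, 95.1 and 104 TPM in the E76Q libraries. Cyr61, Ctgf and Wisp2 of the CCN family had log2 fold changes of 2.74, 1.82 and 2.45 and rose, while Nov (log2 fold change -0.15) and Wisp1 (-0.38) did not pass the test. Sparc, osteonectin, rose from 907 ± 32.3 to 2203 ± 56.4 TPM, whereas Smoc2 fell from 388 ± 12.1 to 99.2 ± 5.47 TPM and Tnxb, tenascin X, from 4.19 ± 0.768 to 0.514 ± 0.0558 TPM. Both fallen members lie on chromosome 17. The E76Q libraries were above the other 18 libraries for Cyr61, Wisp2, Thbs1, Thbs3 and Tnc, although Tnc lost its call against WT without E76Q replicate 2 or 3 or WT replicate 1 or 3 (adjusted p = 0.0671 to 0.0834). Postn, periostin, also rose but lost its call whichever library was left out (adjusted p = 0.0682 to 0.0913).

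Proteases and inhibitors of the matrix had 11 risen and 2 fallen of 20 tested. Over the 18 with a WT mean of at least 1 TPM, 9 rose and 2 fell. Mmp19 had 5.43, 6.49 and 5.66 TPM in the WT libraries and 37.2, 39.7 and 35.8 TPM in the E76Q libraries, and Adamts9 rose from 0.491 ± 0.0652 to 6.92 ± 0.657 TPM. Serpine2, an inhibitor of serine proteases, rose from 81.9 ± 3.49 to 466 ± 14.6 TPM, and the metalloproteinase inhibitors Timp2 and Timp3 rose, with log2 fold changes of 0.89 and 0.87. The 2 that fell were the plasminogen activators Plau (log2 fold change -1.64) and Plat (-0.85). Basement membrane genes were split, with 6 risen and 4 fallen of 11. Lama5, the laminin alpha 5 chain, fell from 33.2 ± 1.43 to 0.297 ± 0.0107 TPM and Nid1, nidogen 1, had 42.3, 43.5 and 42.3 TPM in the WT libraries and 2.70, 3.24 and 3.28 TPM in the E76Q libraries. Lama4, Lamb2, Lamb3, Nid2, Hspg2 and Agrn rose, by 1.01 (Hspg2, perlecan) to 2.30 (Lamb3) on the log2 scale. Nid2 stood at 28.7 ± 1.46 TPM in WT and 70.1 ± 3.43 TPM in E76Q, opposite to Nid1, and lost its call without E76Q replicate 2 (adjusted p = 0.0509) or WT replicate 3 (0.052).

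Elastic fibre genes had 4 risen and 4 fallen of 13, against 22.6% and 23.6% of all genes. Over the 11 with a WT mean of at least 1 TPM, 3 rose and 4 fell. Efemp1, fibulin 3, had 344, 356 and 343 TPM in the WT libraries and 0.449, 0.805 and 0.973 TPM in the E76Q libraries. Fbln5, fibulin 5, which guides elastin onto microfibrils, rose from 23.7 ± 2.50 to 206 ± 10.4 TPM and Efemp2 by 0.85 on the log2 scale. Within the fibulin family, then, 2 of 4 tested members rose and Efemp1 fell. Among 11 hyaluronan genes 4 rose and 3 fell: Has2, the main hyaluronan synthase, went from 1.59 ± 0.217 to 32.4 ± 3.14 TPM and Has1 from 7.28 ± 0.570 to 0.139 ± 0.0746 TPM. Vcan, versican, which binds hyaluronan, rose by 2.16 on the log2 scale.

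Markers of the other lineages open to these cells did not move as a block. Of 12 osteoblast genes tested, 6 rose and 3 fell. Over the 10 with a WT mean of at least 1 TPM, 4 rose and 3 fell. Runx2, the master regulator of bone, did not pass the test (11.3, 16.7 and 12.8 TPM in WT and 13.4, 17.2 and 22.05 TPM in E76Q, adjusted p = 0.401). Dlx5, a homeobox factor, rose from 2.31 ± 0.755 to 31.3 ± 0.125 TPM, and Tnfrsf11b, osteoprotegerin, from 20.5 ± 0.437 to 93.6 ± 2.85 TPM. Spp1, osteopontin, fell from 1455 ± 102 to 396 ± 10.5 TPM and Phospho1, a phosphatase of mineralization, from 71.2 ± 1.18 to 10.5 ± 0.722 TPM. The osteocalcin gene Bglap2 rose by 5.85 on the log2 scale, but it entered only through its level in E76Q. It also has near-identical copies among which reads can be divided.

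Adipocyte genes had 5 risen and 6 fallen of 17 tested, and 4 risen and 6 fallen of the 16 with a WT mean of at least 1 TPM. Pparg, the master regulator of fat cells, had 18.9, 21.4 and 20.99 TPM in the WT libraries and 12.5, 12.7 and 13.6 TPM in the E76Q libraries. The fall was small (log2 fold change -0.62 ± 0.12, adjusted p = 0.000436). Its partners Cebpa and Cebpd rose, from 0.351 ± 0.168 to 2.99 ± 0.216 TPM and from 11.2 ± 0.942 to 25.6 ± 0.598 TPM. Cebpa entered only through its level in E76Q. Ppargc1a, a coactivator of mitochondrial genes, had 1.93, 2.02 and 1.72 TPM in the WT libraries and 21.8, 23.8 and 25.9 TPM in the E76Q libraries and was above all 18 other libraries. Among enzymes of fat storage and release Pnpla2 and Agpat2 fell (log2 fold changes -1.07 and -0.96).

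Smooth muscle contractile genes had 6 risen and 4 fallen of 14. Acta2, smooth muscle actin, had 104, 97.8 and 96.3 TPM in the WT libraries and 479.8, 513 and 582 TPM in the E76Q libraries. Every E76Q library exceeded the other 18 libraries, of which the highest had 345 TPM (log2 fold change 2.39 ± 0.15, adjusted p = 1.11e-09). Myl9, the myosin light chain of the same filaments, had 107, 104 and 109 TPM in the WT libraries and 0.160, 0.123 and 0 TPM in the E76Q libraries. Mylk, the kinase of that light chain, rose by 1.81, and Tpm2, a tropomyosin, fell by 1.13 on the log2 scale.

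Of the signalling pathways, Wnt had 14 risen and 7 fallen genes of 24 tested (51 listed), and 8 risen and 7 fallen of the 17 with a WT mean of at least 1 TPM. Wnt ligands bind Frizzled receptors, and R-spondins strengthen the signal by keeping those receptors at the surface. No ligand rose: Wnt7b was listed at 0 in all E76Q libraries, Wnt9a fell by 0.75 and Wnt10b did not pass the test (0.35 on the log2 scale). R-spondins and receptors had 10 risen and 1 fallen of 12, against 22.6% and 23.6% of all genes. That count includes Fzd4 and Ror1, which had WT means under 1 TPM and entered only through their level in E76Q. Rspo2 (chr15:43020788-43171594) had 4.12, 4.72 and 3.97 TPM in the WT libraries and 106, 112.97 and 112 TPM in the E76Q libraries. The receptor genes Fzd8 and Fzd4 rose from 2.65 ± 0.0784 to 27.4 ± 1.23 TPM and from 0.879 ± 0.243 to 11.2 ± 1.44 TPM, and Ror1, a receptor for non-canonical Wnts, from 0.362 ± 0.139 to 7.29 ± 0.859 TPM. Of the secreted inhibitors Wif1 rose from 0.0729 ± 0.0233 to 9.22 ± 0.775 TPM. Dkk3 fell, with 22.7, 18.8 and 9.68 TPM in the WT libraries and 9.16, 0.439 and 0.336 TPM in the E76Q libraries, and E76Q replicate 1 nearly reached WT replicate 3. Without any library but E76Q replicate 1 it lost its call (adjusted p = 0.0537 to 0.149). Ctnnb1, beta-catenin, did not pass the test (417 ± 9.09 against 490.3 ± 21.5 TPM). Of its nuclear partners Tcf7l1 and Tcf7l2 rose, and 2 others moved in opposite directions. Tcf7 had 7.72, 6.65 and 11.6 TPM in the WT libraries and 0, 0.0609 and 0 TPM in the E76Q libraries, and the lowest of the other 18 libraries held 1.59 TPM. Lef1 had 0.0488, 0.151 and 0.0974 TPM in the WT libraries and 4.28, 5.45 and 4.58 TPM in the E76Q libraries and was above all 18. Apcdd1, a membrane inhibitor of the pathway, fell from 41.8 ± 1.85 to 2.86 ± 0.279 TPM.

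BMP signalling, which induces cartilage and bone, had 13 risen and 2 fallen of 25 tested (44 listed), and 9 risen and 2 fallen of the 21 with a WT mean of at least 1 TPM. The ligand Bmp4 had 14.6, 14.5 and 14.1 TPM in the WT libraries and 69.6, 74.2 and 70.8 TPM in the E76Q libraries, with no overlap (log2 fold change 2.24 ± 0.23, adjusted p = 5.81e-07). Grem1, gremlin, a secreted antagonist of BMP4, had 51.3, 54.6 and 49.8 TPM in the WT libraries and 2.31, 2.66 and 3.53 TPM in the E76Q libraries (log2 fold change -3.80 ± 0.39, adjusted p = 5.81e-07). The other fallen member was also an antagonist, Chrd (log2 fold change -1.49), while the antagonist Chrdl1 rose from 0.231 ± 0.133 to 3.03 ± 0.111 TPM. Of 14 SMADs and targets tested 7 rose and the other 7 did not pass the test. The 7 include Id4 and Bambi, which entered only through their level in E76Q and rose. Among those that rose, Id4 went from 0.180 ± 0.00892 to 20.2 ± 0.723 TPM, Id3 from 95.2 ± 4.03 to 290.1 ± 16.6 TPM and the inhibitory Smad6 from 9.04 ± 0.728 to 34.6 ± 2.26 TPM. Bambi, a decoy receptor and target, rose from 0.612 ± 0.154 to 13.4 ± 0.329 TPM and, like Id4, was above all 18 other libraries.

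TGF-beta genes had 7 risen (33.3%) and 6 fallen (28.6%) of 21, against 22.6% and 23.6% of all genes. Tgfb2 had 1.90, 1.85 and 1.35 TPM in the WT libraries and 36.3, 38.4 and 40.1 TPM in the E76Q libraries, above all 18 other libraries, while the receptor Tgfbr2 fell from 56.2 ± 1.52 to 25.0 ± 1.41 TPM. Inhba, which encodes activin A, rose from 1.74 ± 0.219 to 13.2 ± 2.17 TPM. Scx, a tendon factor, fell by 1.14 on the log2 scale. The FGF pathway was divided by role. Of 8 ligands and receptors 5 rose and 2 fell. Over the whole FGF list 2 members entered only through their level in E76Q, and without them 3 rose and 8 fell of 16. Fgfr2 went from 0.0831 ± 0.0473 to 18.6 ± 2.46 TPM and Fgfrl1 from 23.9 ± 1.34 to 126 ± 9.87 TPM. Fgfr1, the most abundant receptor of the family, fell by 0.63 on the log2 scale. Of 10 feedback targets, genes that FGF and ERK signalling switches on and that dampen it, none rose and 6 fell. Dusp4, a phosphatase of ERK, had 109, 104 and 116 TPM in the WT libraries and 2.52, 2.26 and 2.63 TPM in the E76Q libraries and was below all 18 other libraries. Etv4 and Etv5 fell from 27.03 ± 2.32 to 2.64 ± 0.161 TPM and from 8.92 ± 0.477 to 2.27 ± 0.224 TPM, while Dusp6 (log2 fold change 0.28) and Spry2 (0.31) did not pass the test.

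Hedgehog genes had 5 risen and none fallen of 8. Boc, a co-receptor, rose from 2.97 ± 0.0714 to 54.1 ± 2.16 TPM, and Ptch1, the receptor and a target, from 15.3 ± 0.911 to 45.0 ± 1.74 TPM. Gli1, another target, did not pass the test (2.27 ± 0.0537 against 1.03 ± 0.156 TPM). The Notch receptors moved apart: Notch1 rose from 18.8 ± 4.03 to 59.6 ± 6.603 TPM, and Notch3, on chromosome 17, had 32.6, 37.0 and 30.9 TPM in the WT libraries and 0.0348, 0.0534 and 0.0532 TPM in the E76Q libraries. In the IGF list 2 rose and 4 fell of 11. Grb10, an adaptor of the insulin receptor, rose from 5.89 ± 0.488 to 80.3 ± 6.33 TPM, and the binding proteins Igfbp4 and Igfbp6 fell from 195 ± 4.23 to 3.59 ± 0.225 TPM and from 36.3 ± 3.10 to 2.29 ± 1.23 TPM. Among 12 targets of YAP and TEAD 7 rose and 2 fell, and F3, tissue factor, rose from 77.7 ± 4.24 to 324 ± 10.7 TPM.

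Genes of the cell cycle were lower in E76Q. G1/S genes, many of them switched on by E2F factors, copy the DNA, and G2/M genes, many of them controlled by the DREAM complex through a short promoter element called CHR, carry out mitosis. Of 40 DNA replication and G1/S genes all were tested, none rose and 38 fell, against 23.6% of all genes, and the median log2 fold change was -1.06. The 2 that did not pass, E2f1 (log2 fold change -0.05) and Ccne1 (-0.30), had small differences. Of 46 mitosis and G2/M genes none rose and 37 fell, with a median of -1.21. Leaving out any 1 of the 6 libraries lowered the G2/M count to 21 (WT replicate 3) to 25 (WT replicate 2), and a fit of only the 6 libraries raised it to 46.

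Uhrf1, on chromosome 17, recruits the maintenance DNA methyltransferase to new DNA and had 87.7, 84.5 and 89.0 TPM in the WT libraries and 19.7, 23.1 and 22.1 TPM in the E76Q libraries. It fell by 1.96 ± 0.30 on the log2 scale (adjusted p = 4.58e-05), with no overlap. Cdt1, which licenses replication origins, fell from 56.6 ± 1.65 to 15.5 ± 0.790 TPM. The helicase subunits Mcm5 and Mcm4 fell from 82.7 ± 6.48 to 25.6 ± 1.22 TPM and from 105 ± 7.24 to 35.0 ± 1.29 TPM. All 26 origin and fork genes fell. Bub1, a kinase of the spindle checkpoint, had 34.6, 31.9 and 36.1 TPM in the WT libraries and 9.42, 9.76 and 11.4 TPM in the E76Q libraries. Ndc80, a kinetochore protein, fell from 52.8 ± 3.78 to 16.4 ± 0.966 TPM, Kif23, a motor of cytokinesis, from 71.7 ± 6.83 to 22.7 ± 4.64 TPM and Ube2c, which helps to degrade cyclins, from 230.4 ± 11.8 to 78.3 ± 1.68 TPM. The proliferation marker Mki67 had 37.7, 41.1 and 43.3 TPM in the WT libraries and 20.8, 21.8 and 24.3 TPM in the E76Q libraries, which did not overlap, but its log2 fold change of -0.84 ± 0.36 had an adjusted p of 0.0621. It passed in a fit of only the 6 libraries (adjusted p = 8.31e-05), without the 4 libraries that lay apart (5.18e-05) and with the replicate block (0.0467). Against the mean of the other 5 mutants, 2 of the 40 G1/S genes and 1 of the 46 G2/M genes were lower in E76Q and none was higher. Of all genes 15.9% were lower and 10.7% higher in that contrast, so both lists lay below those shares.

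Of 12 CDK inhibitors, D cyclins and partners 1 rose and 5 fell. Cdkn1a, the p21 inhibitor, had 271 ± 1.48 TPM in WT and 269.9 ± 13.2 TPM in E76Q, and Cdkn1b had 67.3 ± 3.94 and 62.6 ± 3.38 TPM. Neither passed the test. Cdkn1a lies on chromosome 17, and with each chromosome centred at 0 it passed as a rise (0.37 on the log2 scale, adjusted p = 0.0024). Ccnd1, cyclin D1, had 270.4, 263 and 295 TPM in the WT libraries and 93.8, 96.5 and 95.0 TPM in the E76Q libraries, below all 18 other libraries. On the log2 scale Cdk6 fell by 1.13 and Rb1 rose by 0.74, while Ccnd2 did not pass (-0.03). Without E76Q replicate 3 Rb1 did not pass (adjusted p = 0.067). Of 22 p53 target genes 5 rose (22.7%, against 22.6% of all genes) and 3 fell (13.6%, against 23.6%), so the list did not stand out. Btg2 and Fas rose from 5.52 ± 0.276 to 35.8 ± 2.32 TPM and from 3.91 ± 0.992 to 23.9 ± 3.63 TPM, and Ddb2 fell from 4.46 ± 0.358 to 0.166 ± 0.0760 TPM.

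Promoters from RefSeq (GRCm38.p6, from 250 bases before to 50 bases after the start) were searched on both strands, each motif on its own. The E2F letters TTTCCCGC, TTTCGCGC, TTTGCCGC or TTTGGCGC were found in 15 of 33 G1/S genes with a window (45.5%), against 4.9% of the 9362 tested genes with one. The CHR letters TTTGAA were found in 28 of 37 G2/M genes (75.7%), against 14.5%. A match is a description of the letters, and no binding was measured. Many members are known for control through these elements, so the shares describe the lists and not the change in E76Q. The stretches below are from members with large falls, on the strand of the gene and with the match in capitals. The first 3 hold E2F letters and the last 3 CHR letters. Those of Mcm7 and Ube2c carry the match on the opposite strand, and that of Mcm5 holds 2 overlapping matches, 1 on each strand.
Uhrf1 chr17:56304098-56304165 (+ strand): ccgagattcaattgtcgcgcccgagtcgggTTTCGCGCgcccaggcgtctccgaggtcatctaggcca
Mcm5 chr8:75109330-75109397 (+ strand): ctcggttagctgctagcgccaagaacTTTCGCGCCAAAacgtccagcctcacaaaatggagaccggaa
Mcm7 chr5:138172011-138172078 (- strand): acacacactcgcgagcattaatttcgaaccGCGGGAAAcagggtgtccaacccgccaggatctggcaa
Ect2 chr3:27153957-27154022 (- strand): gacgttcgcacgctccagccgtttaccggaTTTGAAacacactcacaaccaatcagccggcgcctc
Ube2c chr2:164769870-164769928 (+ strand): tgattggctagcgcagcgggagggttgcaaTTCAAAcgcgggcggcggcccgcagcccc
Ncapg chr5:45669865-45669924 (+ strand): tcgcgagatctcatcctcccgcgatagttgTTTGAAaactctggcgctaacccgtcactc
The log2 fold changes were -1.54 for Mcm7, -1.60 for Ect2 and -1.48 for Ncapg.

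Interferon-stimulated genes were higher in E76Q. Interferons act through a complex of transcription factors that binds an element called ISRE and switches on antiviral effectors. Of 33 listed, 32 were tested, 22 rose, against 22.6% of all genes, and none fell. Their median log2 fold change was 0.92. Among the factors of the response, on the log2 scale, Stat2 and Irf9 rose by 0.71 and 0.87, while Irf7 (0.91) and Irf1 (-0.34) did not pass the test, although Irf1 passed as a fall with the median-ratio, quantile and Mir6236-free scalings. The call of Stat2 was lost without WT replicate 1 (adjusted p = 0.0501). Gbp3, a guanylate-binding protein, had 9.28, 9.10 and 9.58 TPM in the WT libraries and 72.3, 79.6 and 74.8 TPM in the E76Q libraries (log2 fold change 2.89 ± 0.37, adjusted p = 6.74e-06). Ifi44 had 24.7, 22.1 and 22.1 TPM in the WT libraries and 127, 135 and 134 TPM in the E76Q libraries. Both were above all 18 other libraries. Ifit1, which binds foreign RNA, rose from 48.4 ± 3.55 to 165 ± 15.3 TPM. Ifit3 and Ifit3b rose from 47.4 ± 2.98 to 265 ± 14.1 TPM and from 20.3 ± 0.843 to 85.0 ± 8.25 TPM, but they are near-identical copies and the division of reads between them is uncertain. Dhx58, a sensor of viral RNA, rose by 1.67 on the log2 scale. Compared with the other 5 mutants 16 of the 32 were higher in E76Q (10.7% of all genes) and none was lower (15.9%). Compared with E76K 9 were higher (8.93% of all genes) and Ifit2 was lower (22.8%).

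The ISRE letters (GAAA, 2 bases of any kind, GAAA) were found in the promoters of 14 of 22 interferon-stimulated genes with a window (63.6%), 12 of the 16 risen ones (75%), against 3.77% of all tested genes with one. Members of this list are known for induction through that element, so the shares describe the list and not the change in E76Q. The 3 stretches below belong to risen members with large changes and carry matches on the opposite strand, in capitals, of which Gbp3 has 2 that overlap. The stretch of Ifit3b is the same, letter for letter, as that of Ifit3.
Gbp3 chr3:142559975-142560043 (+ strand): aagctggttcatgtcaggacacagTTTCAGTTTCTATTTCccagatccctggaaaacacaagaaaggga
Ifit3 chr19:34583377-34583446 (+ strand): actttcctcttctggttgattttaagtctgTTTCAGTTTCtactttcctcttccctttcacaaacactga
Gbp2 chr3:142620574-142620643 (+ strand): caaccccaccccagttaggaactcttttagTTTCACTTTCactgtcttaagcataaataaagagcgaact
Gbp2 rose from 11.0 ± 0.944 to 43.3 ± 3.46 TPM.

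**Figure D3:**
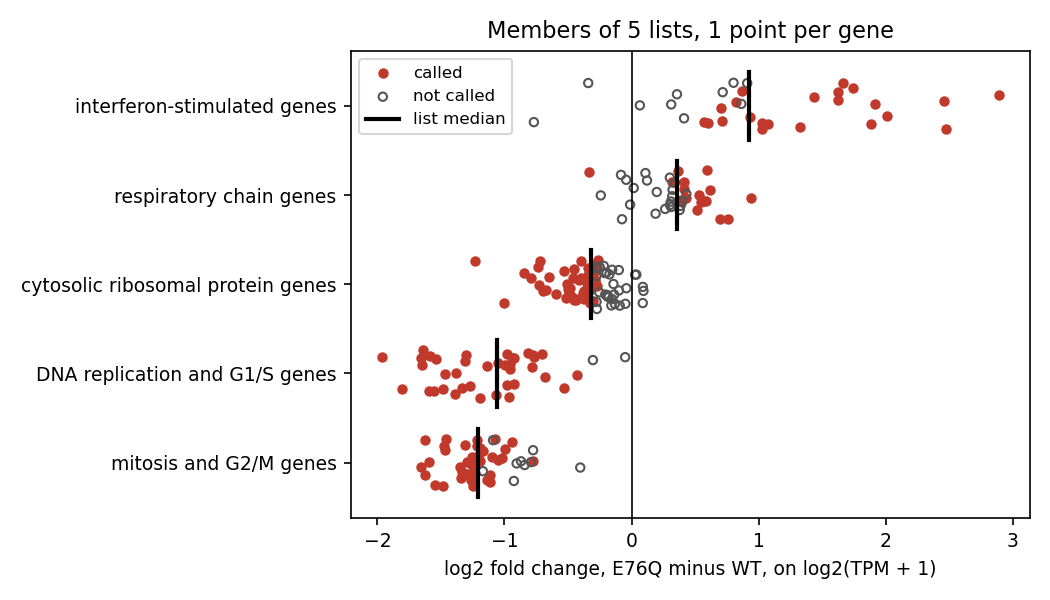
Log2 fold changes (E76Q minus WT, on log2(TPM + 1)) of the members of 5 lists, 1 point per gene, filled where called, with a black bar at the list median. Interferon-stimulated genes have a median of 0.92, respiratory chain genes 0.35, ribosomal protein genes -0.32, G1/S genes -1.06 and G2/M genes -1.21.

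Antigen presentation genes, many of which interferon also induces, did not follow: of 12 tested, 1 rose and 2 fell. The one that rose was B2m, the shared light chain of MHC class I, from 2919 ± 93.8 to 4489.9 ± 112 TPM. H2-T23, a non-classical class I gene, had 81.0, 86.9 and 76.4 TPM in the WT libraries and 8.40, 7.86 and 6.27 TPM in the E76Q libraries (log2 fold change -3.28 ± 0.28, adjusted p = 5.97e-08), and Nlrc5, the class I transactivator, fell by 0.56 on the log2 scale. The call of Nlrc5 was lost without E76Q replicate 1 or 3 or WT replicate 2 or 3 (adjusted p = 0.0844 to 0.102). H2-K1 (log2 fold change -0.58) and Tap1 (-0.13) did not pass, although Tap1 passed as a rise (0.25) with each chromosome centred at 0. Of the 12, 9 lie on chromosome 17, with 1 fallen and none risen, and their median log2 fold change was -0.13 against 0.31 for the other 3. Compared with the other 5 mutants, 8 of the 12 were higher in E76Q (10.7% of all genes) and 1 was lower (15.9%).

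Inflammatory genes of the NF-kB list had 8 risen and 13 fallen of 27 tested. Ccl2, a chemokine for monocytes, had 498, 421 and 532 TPM in the WT libraries and 45.4, 47.2 and 43.9 TPM in the E76Q libraries, and Ccl7 fell from 236 ± 21.7 to 40.1 ± 6.26 TPM. Ccl5 went the other way, with 31.0, 28.4 and 34.6 TPM in the WT libraries and 113.3, 121 and 121 TPM in the E76Q libraries, and no other library of the series exceeded 41.6 TPM. Il33 and its receptor Il1rl1 fell (log2 fold changes -1.99 and -1.72), while Il1r1 rose by 1.91. Il1rn, the antagonist of that receptor, was at 121, 126 and 124 TPM in E76Q against at most 2.51 TPM in WT. The pentraxin Ptx3 rose by 5.77 on the log2 scale.

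Replication-dependent histone genes, whose transcripts carry a stem-loop in place of a poly(A) tail, showed no common direction: of 68 listed, 62 were in the table, 51 were tested, 9 rose and 5 fell, and the other 37 did not pass. Whether RNA was selected by poly(A) is not given in the sources used here, and near-identical copies share reads, so single members are uncertain. Of 11 H2B genes 4 rose and 1 fell. Hist1h2bc, on the H2B list, had 41.5, 42.4 and 41.2 TPM in the WT libraries and 187, 186 and 149 TPM in the E76Q libraries. Hist1h2bk fell from 4.36 ± 1.14 to 0.613 ± 1.06 TPM. The H3 genes Hist1h3a and Hist1h3h fell from 266 ± 7.74 to 0.826 ± 0.715 TPM and from 156 ± 9.33 to 1.22 ± 1.19 TPM. Hist1h1c, a linker histone, rose from 40.5 ± 2.11 to 163 ± 3.33 TPM. On chromosome 13 there were 42 of the 51, with 6 risen and 5 fallen and a median log2 fold change of -0.06.

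Histone chaperones and enzymes of H2B ubiquitination had 4 risen and 13 fallen of 34, with 2 risen without E76Q replicate 3 or WT replicate 1 and 7 risen with the median-ratio rescaling or with Mir6236 left out. Chaf1a and Chaf1b, the CAF-1 subunits that place histones behind the replication fork, fell (log2 fold changes -1.60 and -1.47) and are also on the G1/S list. Asf1b, a chaperone of H3 and H4, fell from 48.9 ± 4.26 to 17.2 ± 1.82 TPM, Nasp, a carrier of H3 and H4, from 61.8 ± 4.56 to 28.3 ± 1.33 TPM and Nap1l1, a chaperone of H2A and H2B, from 869 ± 44.2 to 457 ± 1.52 TPM. On the log2 scale Hira, which loads histones outside replication, fell by 1.003. Rnf20, a ligase that ubiquitinates H2B, rose by 0.50 on that scale, and Rnf40, its partner, did not pass the test (0.06). Among 32 chromatin remodellers 1 rose and 9 fell: Smarca2 rose from 23.6 ± 1.41 to 66.2 ± 2.95 TPM and Hells, a remodeller linked to DNA methylation, fell from 60.3 ± 4.71 to 15.95 ± 0.900 TPM. With Mir6236 left out the remodeller counts became 9 risen and 9 fallen.

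Transcripts of the translation machinery were slightly lower. Of 78 cytosolic ribosomal protein genes none rose and 48 fell, with a median log2 fold change of -0.32. Rps2, on chromosome 17, had 5459, 4983 and 5411 TPM in the WT libraries and 2309, 2288 and 2145 TPM in the E76Q libraries, the largest fall of the list (log2 fold change -1.23 ± 0.17, adjusted p = 1.58e-05), and was below all 18 other libraries. Rps12, Rpl36 and Rpl12 also fell (log2 fold changes -1.005, -0.85 and -0.79). The 6 members on chromosome 17 all fell, with a median of -0.72, and 42 of the other 72 fell, with a median of -0.30. The count was 25 without E76Q replicate 3 and 31 without either WT replicate 1 or WT replicate 3, and after quantile normalization 35 fell and 6 rose.

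Respiratory chain genes moved the other way, with 17 risen and 1 fallen (none when any library was left out) of 40 and a median log2 fold change of 0.35. Sdhc, a subunit of complex II, had 138, 137 and 137 TPM in the WT libraries and 263, 274 and 255 TPM in the E76Q libraries (log2 fold change 0.94 ± 0.19, adjusted p = 0.000831). Cox6c, of complex IV, rose from 946 ± 52.8 to 1604 ± 105 TPM, and Ndufs3, of complex I, from 113.4 ± 6.68 to 184 ± 6.15 TPM. Without E76Q replicate 1 or WT replicate 2 the count was 11, and after the median-ratio rescaling it was 31. Compared with the other 5 mutants 21 of the 40 were higher in E76Q (10.7% of all genes) and 1 was lower (15.9%).

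Amino acid response genes driven by ATF4 had none risen and 16 fallen of 29, although Atf4 itself did not pass the test (383 ± 25.1 against 372 ± 7.22 TPM). With Mir6236 left out, or in a fit of only the 6 libraries, 5 rose, and with the other scalings, each chromosome centred at 0 or the 4 libraries left out 1 or 2 rose. Psat1, an enzyme of serine synthesis, had 314, 289 and 335 TPM in the WT libraries and 72.3, 70.2 and 67.6 TPM in the E76Q libraries, below all 18 other libraries, and the amino acid transporter Slc7a5 fell from 172 ± 19.2 to 64.9 ± 11.7 TPM. Glycolysis and hypoxia genes had 2 risen (1 without any library but WT replicate 2, and 6 in a fit of only the 6 libraries) and 10 fallen of 25. Gapdh had 2980.4, 3092 and 2834 TPM in the WT libraries and 1771, 1875 and 1759 TPM in the E76Q libraries (log2 fold change -0.72 ± 0.12, adjusted p = 0.000105), and Pkm fell from 1319 ± 49.9 to 679.9 ± 26.7 TPM, while Actb did not pass (log2 fold change -0.10). Pdk1, a kinase that inhibits pyruvate dehydrogenase, rose from 4.51 ± 1.12 to 12.6 ± 0.239 TPM. Of 26 cholesterol genes none rose and 9 fell, but the count was 4 to 6 when any 1 of the 6 libraries was left out, and 18 in a fit of only those 6. Redox genes under NRF2 had 4 risen and 11 fallen of 21: Hmox1 and Nqo1 rose (log2 fold changes 1.25 and 1.01), and Sqstm1 and Gclc fell (-1.23 and -1.16).

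Factors that set cell identity changed in single members. Hoxc9 had 0.0561, 0.137 and 0 TPM in the WT libraries and 24.01, 26.98 and 23.7 TPM in the E76Q libraries and Hoxc6 rose from 0.974 ± 0.352 to 7.35 ± 0.240 TPM, both above all 18 other libraries, while Hoxb9 fell from 5.02 ± 0.0699 to 0.124 ± 0.0498 TPM. In all 5 Hox genes rose and 2 fell of 12, and 3 rose and 2 fell of the 10 with a WT mean of at least 1 TPM. Sox4 rose from 11.5 ± 1.70 to 123 ± 4.28 TPM, and Sox12, a close relative, went from 8.96, 8.83 and 8.21 TPM in WT to 0 in all E76Q libraries. Of 29 patterning factors 10 rose and 7 fell, against 22.6% and 23.6% of all genes. Mkx, a tendon factor, rose from 2.29 ± 0.112 to 13.1 ± 0.791 TPM, and the related Foxc1 and Foxc2 had log2 fold changes of 1.24 and -1.30. Among immediate early genes 5 rose (3 without WT replicate 1) and 5 fell of 20, near the shares of all genes (22.6% and 23.6%). Fos had 0.447, 0.765 and 0.536 TPM in the WT libraries and 28.9, 35.7 and 32.2 TPM in the E76Q libraries, and its relative Fosl1 had 26.9, 22.3 and 26.3 TPM in the WT libraries and 1.08, 0.255 and 0.903 TPM in the E76Q libraries. The AP-1 partner Junb rose from 29.0 ± 1.47 to 118 ± 2.98 TPM and Jun did not pass (log2 fold change 0.21).

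Retinoic acid genes had 3 risen and 4 fallen of 9. Aldh1a1 and Rdh10, which make retinoic acid, fell from 12.0 ± 0.932 to 0.530 ± 0.130 TPM and from 71.1 ± 1.02 to 8.58 ± 0.896 TPM. Stra6, which takes up retinol, fell from 31.8 ± 2.44 to 0.121 ± 0.0389 TPM, and Crabp2, which carries retinoic acid to its receptor, had 37.5, 35.6 and 36.1 TPM in the WT libraries and 0.616, 0.631 and 0.471 TPM in the E76Q libraries. Cyp26b1, which breaks it down, and Dhrs3, which returns retinal to retinol, rose from 5.44 ± 0.181 to 46.4 ± 2.68 TPM and from 3.09 ± 0.255 to 58.9 ± 4.42 TPM. The receptors Rara (log2 fold change 0.05) and Rarg (0.05) did not pass the test, and Rxra, a partner of those receptors, rose from 31.2 ± 2.32 to 50.8 ± 2.14 TPM. Dhrs4, a retinal reductase that is not on the list, fell by 3.04 on the log2 scale. Prostaglandin genes had none risen and 7 fallen of 9, with Ptgs1 at 75.2 ± 3.35 TPM in WT and 29.5 ± 0.823 TPM in E76Q and Ptgds listed at 0 in all E76Q libraries.

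Guidance cues and their receptors had 8 risen and 10 fallen of 24. Epha5, an ephrin receptor, fell from 14.0 ± 1.11 to 0.281 ± 0.0933 TPM, Sema5a from 13.02 ± 0.664 to 0.898 ± 0.0821 TPM and Slit2 from 16.2 ± 0.442 to 3.18 ± 0.452 TPM, and Sema3c rose from 3.53 ± 0.297 to 22.8 ± 1.36 TPM. Adhesion receptors had 9 risen and 9 fallen of 23. Cdh11, a mesenchymal cadherin, rose from 12.4 ± 0.150 to 57.2 ± 3.14 TPM, Itga1, a collagen-binding integrin, from 1.01 ± 0.208 to 12.6 ± 0.479 TPM, and Itgb7 fell from 19.5 ± 2.37 to 0.354 ± 0.0499 TPM. In the neural list 7 rose and 4 fell of 12: Ncam1 rose from 21.8 ± 8.71 to 172 ± 22.3 TPM and Crmp1 fell from 41.6 ± 1.95 to 0.470 ± 0.147 TPM.

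Some genes went from high WT levels to nearly nothing. All 12 tested members of the Sprr and proliferin families fell, and 7 of the 9 Sprr genes were listed at 0 in every E76Q library. These families hold near-identical copies, so the values of single members are uncertain. The 12 members had a median log2 fold change of -4.48 against WT but of -0.472 against the mean of the other mutants. Against that mean 4 of the 12 were lower in E76Q (15.9% of all genes) and none was higher (10.7%). Compared with E76K 9 were lower (22.8% of all genes) and none was higher (8.93%). Sprr1a, a cornified envelope protein of epithelia, went from 57.4, 68.0 and 59.4 TPM in WT to 0. Arl6ip1, which shapes the endoplasmic reticulum, had 168, 170.4 and 169.5 TPM in the WT libraries and 1.13, 1.42 and 1.57 TPM in the E76Q libraries and Aldh3a1, an aldehyde dehydrogenase, 120.4, 127 and 113.5 TPM in the WT libraries and 2.38, 1.76 and 1.44 TPM in the E76Q libraries. In the other direction Scg2, secretogranin 2 of secretory granules, had 0.234, 0.127 and 0.234 TPM in the WT libraries and 26.5, 27.2 and 27.5 TPM in the E76Q libraries, and Tspan7, a tetraspanin, had 0.270, 0.220 and 0.0378 TPM in the WT libraries and 23.9, 24.3 and 25.4 TPM in the E76Q libraries. Both were below 0.3 TPM in every WT library.

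Chromosomes differed in their balance of directions. For each library the median log2 difference from the WT mean was taken over the genes of a chromosome with at least 5 TPM, less the median over all such genes, so that 0 is the balance of the genome. On chromosome 17 this was -0.37, -0.38 and -0.39 in the E76Q libraries, and the WT libraries lay between -0.01 and 0.01. Of 511 genes there 236 fell and 28 rose, and 76.7% had a fold change below 0. The 9 windows of 10 Mb with at least 10 genes had medians of -0.42 to -0.31, so every such window was below 0. The 15 libraries of the other mutants were also below WT on chromosome 17, at -0.41 to -0.14. On chromosome 1 the E76Q libraries stood at 0.27 to 0.29, with 212 risen and 64 fallen of 539 genes, and other mutants at 0.04 to 0.32. Chromosome 16, split at 60 Mb after its windows were seen, was uneven: the first 60 Mb (253 genes) had -0.32 to -0.26, with 21 risen and 105 fallen, and the rest (60 genes) 0.01 to 0.07, with 13 risen and 12 fallen.

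Chromosome 13 differed from its state in the other mutants, a difference that was not tested. Its medians were 0.25, 0.28 and 0.30 in the E76Q libraries against -0.02 to 0.09 in the 15 libraries of the other mutants. There 155 genes rose and 47 fell of 372, and its 12 windows ran from 0.07 to 0.60. The E76Q libraries also lay outside the other mutants on chromosome 15 (0.13 to 0.14, others -0.20 to 0.08) and chromosome 8 (-0.12 to -0.10, others 0.01 to 0.35) and, by smaller margins, on chromosome 18 (0.066 to 0.081, others -0.189 to 0.056) and chromosome 5 (-0.076 to -0.064, others -0.056 to 0.083). DNA was not measured. With each chromosome centred at 0 in every library, 3682 genes rose and 3456 fell. The counts were then 16 risen chondrocyte genes of 18 tested, as without centring, 8 risen small leucine-rich proteoglycans, 22 risen and 1 fallen interferon-stimulated genes, 38 fallen G1/S genes and 52 fallen ribosomal protein genes.

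**Figure D4:**
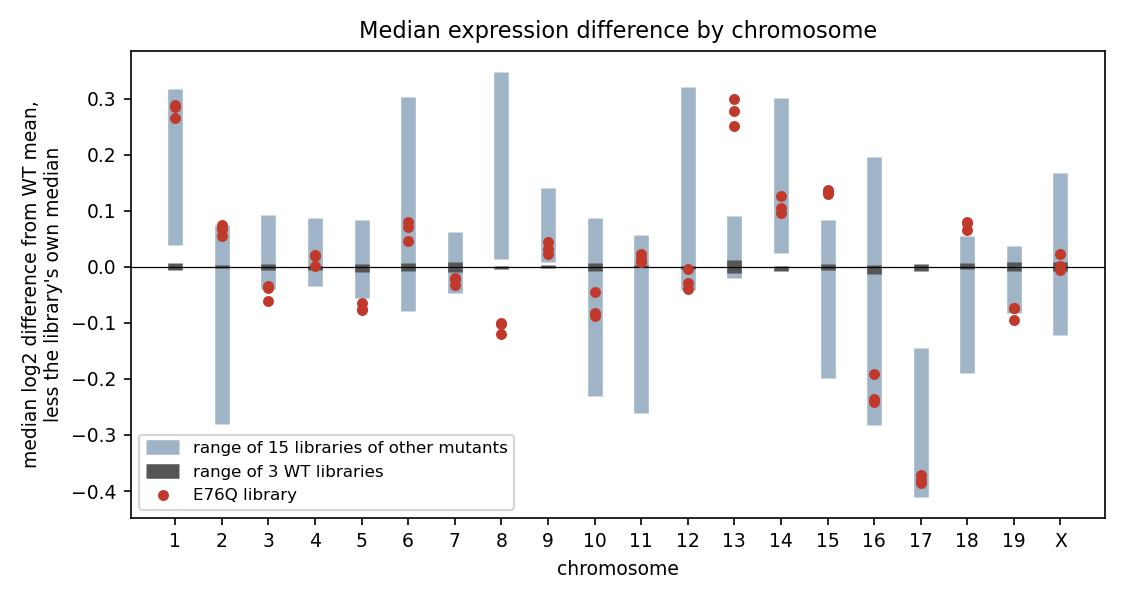
Median log2 difference from the WT mean by chromosome, less each library's own median, for the 3 E76Q libraries (red points), with bars for the range of the 3 WT libraries (dark) and of the 15 libraries of the other mutants (pale). E76Q lies near -0.38 on chromosome 17, within the range of the other mutants, and near 0.28 on chromosome 13, above that range.

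To find what was particular to E76Q, it was compared with the mean of the other 5 mutants. The difference itself uses no WT library, but the WT libraries enter the filter on genes and the pooled variance. Genes high only in other mutants, with a mean under 1 TPM over the E76Q and WT libraries, were not tested. Of the 11983 genes 3187 differed (26.6%), with 1281 higher in E76Q (10.7%) and 1906 lower (15.9%). That balance depended on the scaling: genes higher in E76Q were 40.2% of the calls as deposited and 55.1% with the median-ratio rescaling (2763 higher and 2249 lower), which moved the median log2 difference of all genes from -0.03 to 0.02. Without the 4 libraries that lay apart 2527 were higher and 3277 lower. The 3 E76Q libraries lay above all 18 other libraries, WT included, in 318 genes, of which 305 passed the test, and below all 18 in 353, of which 352 did. The genes below are among those with the largest differences.

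Among genes above all other libraries, Esm1, endocan, a proteoglycan, had 46.0, 47.2 and 45.9 TPM in E76Q and at most 6.49 TPM elsewhere. Islr, a marker of mesenchymal stromal cells, had 364, 383 and 354 TPM in E76Q, 42.6 ± 3.34 TPM in WT and at most 81.1 TPM in the 18 libraries. Its difference from the other mutants was 4.06 ± 0.46 on the log2 scale (adjusted p = 3e-06). Slpi, a secreted protease inhibitor, had 1162, 1113 and 928 TPM, next to 543 TPM on average in E71Q and 4.92 TPM in E113K. Akr1c12, an aldo-keto reductase, had 52.9, 53.1 and 45.0 TPM and at most 15.6 TPM elsewhere, but it belongs to a family of close copies. Tmtc4 had 285, 538 and 425 TPM, with replicates that spread nearly 2-fold, and at most 233 TPM elsewhere. Col9a1 was above all others too, but E71K reached 224 TPM in 1 library.

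Below all other libraries was Ddah2, which breaks down an inhibitor of nitric oxide synthesis and lies on chromosome 17, with 0.622, 0.747 and 0.929 TPM in E76Q and 3.42 to 102 TPM elsewhere. Dhrs4, a retinal reductase, had 3.21, 3.40 and 2.80 TPM and at least 5.03 TPM elsewhere. Wwc1, the Hippo pathway protein KIBRA, had 0.0440, 0.0338 and 0 TPM against 18.3 ± 0.707 TPM in WT, though E71Q averaged only 0.124 TPM. Gch1, the first enzyme of tetrahydrobiopterin synthesis, had 0.532, 0.695 and 1.02 TPM and at least 1.24 TPM elsewhere. Msln, mesothelin, was at or below 0.149 TPM in E76Q and at 4.40 TPM or more in the other libraries.

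**Figure D5:**
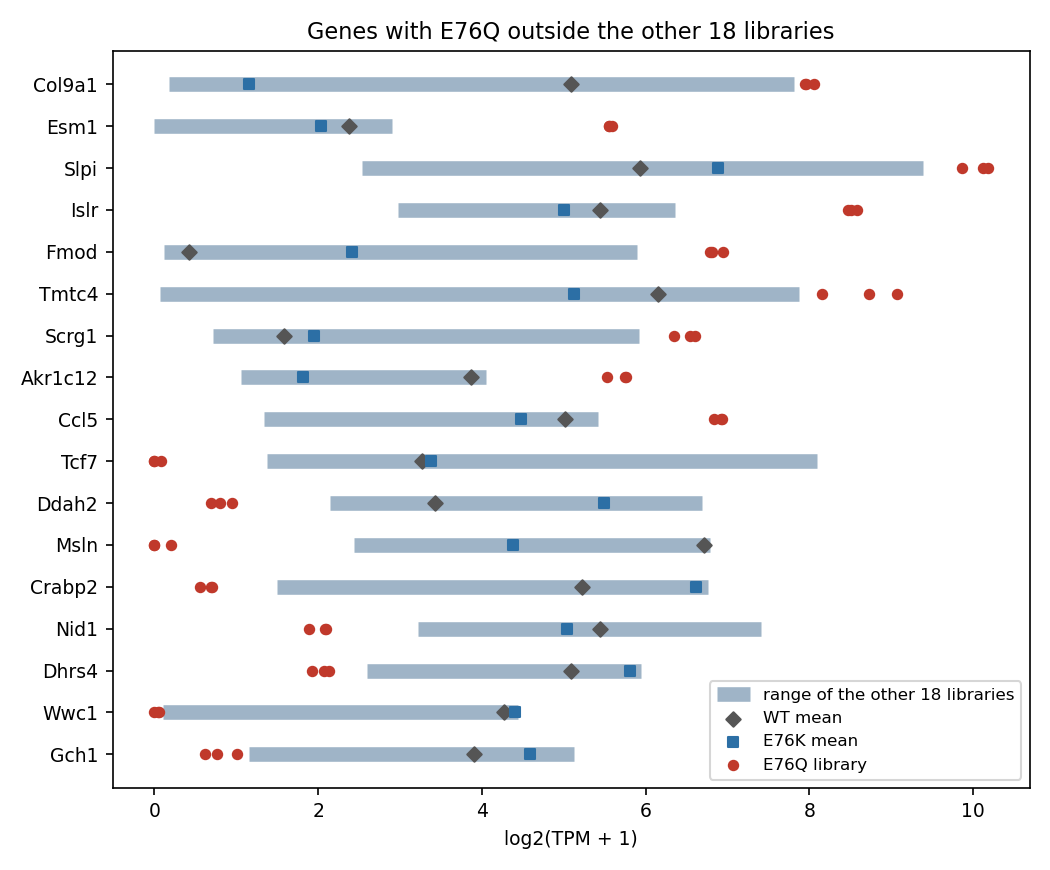
Levels, as log2(TPM + 1), of genes described here with large differences between E76Q and the other mutants and whose E76Q libraries (red) lie outside all 18 others (pale bar, lowest to highest), with the WT mean (grey) and the E76K mean (blue). The genes from Col9a1 down to Ccl5 are highest in E76Q, and the genes below them are lowest there.

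E76K changes the same residue to lysine, so the pair shows how 2 substitutions compare at 1 site. Of the 11983 genes 3798 differed between E76Q and E76K (31.7%), with 1070 higher in E76Q (8.93%) and 2728 lower (22.8%). Genes high in E76K but with a mean under 1 TPM over the E76Q and WT libraries were not tested. This balance depended on the scaling too: genes higher in E76Q were 28.2% of the calls as deposited and 52% with the median-ratio rescaling (2696 higher and 2485 lower), which moved the median log2 difference from -0.14 to 0.01. Without the 4 libraries that lay apart, replicate 3 of E76K among them, 2118 were higher and 3796 lower.

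Of the 8 genes with the largest excess over E76K, Col9a1, Cnmd, Chadl and Mir140 are on the cartilage list or its microRNA locus. Col9a1 had 246, 267 and 247 TPM in E76Q and 0.961, 1.11 and 1.62 TPM in E76K, with WT between them at 33.0 ± 1.14 TPM. The difference was 6.84 ± 0.52 on the log2 scale (adjusted p = 1.9e-08). Cnmd had 1.46, 1.51 and 9.13 TPM in E76K and Chadl 0, 0.165 and 2.35 TPM, against 139.6 TPM or more and 45.5 TPM or more in E76Q. Sorbs2, an adaptor of the actin cytoskeleton, had 131, 143 and 153 TPM in E76Q and 2.10, 1.60 and 3.31 TPM in E76K, and Gas7, linked to actin as well, had 65.0, 70.99 and 71.2 TPM in E76Q and 0.809, 0.816 and 1.15 TPM in E76K. Pdzrn3, a ubiquitin ligase, had 53.8, 62.2 and 56.4 TPM in E76Q and 0.218, 0.107 and 0.245 TPM in E76K. The WT means of Gas7 and Pdzrn3, 14.7 and 9.72 TPM, lay between those of the substitutions, as for Col9a1. Sorbs2 and Gas7 were not high in E76Q alone: they averaged 153 and 145 TPM in E71Q and 57.0 and 64.6 TPM in E71K. In E113K they averaged 14.2 and 1.06 TPM and in E113Q 27.8 and 23.9 TPM.

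The genes with the largest deficit against E76K had high levels there. Thy1 had 108, 101 and 108 TPM in E76K, above WT, and at most 0.622 TPM in E76Q. Crabp2 had 105, 107 and 79.5 TPM in E76K and 0.616, 0.631 and 0.471 TPM in E76Q. Grem1 had 181, 162 and 87.6 TPM in E76K and 2.31, 2.66 and 3.53 TPM in E76Q, so that the BMP antagonist lay above WT in one substitution and below it in the other. Nov, the matricellular protein CCN3, had 1259, 1277 and 2510.0 TPM in E76K and 29.7, 30.9 and 31.8 TPM in E76Q, where it stayed near the WT level of 34.2 ± 0.843 TPM. Anpep, an aminopeptidase of the cell surface, had 44.8, 44.9 and 78.1 TPM in E76K and 0.269, 0.266 and 0.235 TPM in E76Q. Efemp1 and Arl6ip1 also stayed above 100 TPM in every E76K library. Low levels were not particular to E76Q. In E71K, also a lysine substitution, Thy1, Grem1, Anpep, Efemp1 and Arl6ip1 averaged 0.0791, 0.0528, 0.108, 1.77 and 0.913 TPM. In E71Q they averaged 0.963, 0.299, 0.386, 2.42 and 1.06 TPM. In E113K and E113Q Thy1 averaged 61.4 and 94.2 TPM, and Efemp1 8.06 and 5.06 TPM. Of the G1/S genes 18 of 40 and of the G2/M genes 17 of 46 were lower in E76Q than in E76K and none was higher. Of all genes 22.8% were lower and 8.93% higher.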

How the data were processed

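Whole-transcriptome RNA was read from 21 libraries (RNeasy Mini extraction and NEBNext Ultra II libraries, per the labels' protocols). The authors deposited TPM per gene for each library. The submitters' processing notes name Salmon, featureCounts 1.4.4, DESeq and mm10, with no roles. Which tool gave the TPM, and whether counting used strand, is not given in the sources used here, so overlapping and antisense genes cannot be separated. Each table column named its group and replicate. TPM summed to 999897 to 999931 per library. Each group had 3 libraries, and the variance of a gene was pooled over all 7 groups, with 14 residual degrees of freedom.

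Genes that averaged 1 TPM or more in the 6 libraries entered a test with limma 3.58.1 (R 4.3.3) on log2(TPM + 1), a scale computed here from the deposited TPM, in 1 model of 7 group means with an intensity trend. P-values were adjusted by Benjamini-Hochberg over all 11983 genes and are two-sided. The same fit compared E76Q with E76K and with the mean of the other 5 mutants. It was tested on simulated data with 50 genes changed at each size. Changes of 1.5-fold, 2-fold, 4-fold and 8-fold were recovered in 34%, 72%, 100% and 98% of genes, with 5 false calls. The simulation gave a gene the same spread in every group, whereas the spread of the libraries differed between groups. P-values rest on the spread between libraries of a group, pooled over all 7 groups.

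The members and gene lists were chosen with earlier results of these data known. The genes named were the 20 largest rises and falls with at least 5 TPM, the 8 largest calls per list, all members of lists of at most 20, a fixed panel, the 10 most extreme in each direction against the other mutants and the 8 against E76K. Wnt7b, Wnt9a, Wnt10b, Tcf7l1, Tcf7l2, Lef1, Chrd, Stat2, Irf9, Ifit2, E2f1, Ccne1 and Mcm7 lie outside that rule and were chosen after their values were seen. Positions and promoters came from RefSeq GRCm38.p6, which matched 11971 genes by gene ID and gave promoters for 9362. Some genes that the rule admits are not reported here. Alternatives changed the pseudocount, the filter on low values, the scaling, the model, the libraries and the threshold. Figures were drawn with matplotlib 3.10.9.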

Additional observations from a re-analysis of the deposited data

How the results depend on the processing

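Settings were changed 1 at a time for the counts and for the 278 genes named. As deposited, E76Q against WT gave 2713 risen and 2822 fallen genes, E76Q against E76K 1070 higher and 2728 lower, and E76Q against the other 5 mutants 1281 higher and 1906 lower. Changes of pseudocount (0.1 or 5), filter (none, or a mean of at least 5 TPM), intensity trend, robust moderation and, added after seeing the data, the removal of small RNA genes or of genes with a WT mean under 1 TPM left these 6 counts within 1.5 times. Risen genes numbered 4342 without Mir6236 and 4306 in a fit of only the groups compared. Genes higher than in E76K numbered 2696 with the median-ratio rescaling, 2581 with quantile normalization, 2321 without Mir6236, 1658 in a fit of only the groups compared, 2118 without the 4 libraries apart and 2234 with chromosome centring, also added after seeing the data. Genes higher than in the other mutants numbered 2763, 2443, 2524, 2527 and 2356 under the rescaling, quantile normalization, removal of Mir6236, removal of the 4 libraries and chromosome centring, and those lower numbered 3277 without the 4 libraries. A requirement of at least 2-fold left 1027 risen and 963 fallen, 481 higher and 637 lower than in E76K, and 366 higher and 244 lower than in the other mutants. The causes were not tested, other than that the 2-fold requirement keeps fewer genes by construction. No gene called as deposited was called in the opposite direction in any of these settings.

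Leaving out 1 of the 6 libraries gave 2118 to 2297 risen, 2276 to 2473 fallen, 789 to 998 higher and 1942 to 2549 lower than in E76K, and 777 to 1203 higher and 1147 to 1803 lower than in the other mutants. The lowest of the last 2 counts came without E76Q replicates 2 and 1, and 6 to 9 of the named genes then lost their call. Of the named genes 11 changed sign in at least 1 setting, none of which had passed as deposited. Only 2 of them then passed, both with chromosome centring: Cdkn1a (0.37) and Tap1 (0.25). Of 114 counts of risen or fallen list members, 32 moved by over 1.5 times in the fit of only the groups compared, 25 without the 4 libraries apart and 16 to 18 with another scaling. Deviations of same-numbered E76Q and WT libraries correlated at -0.12, 0.03 and -0.01, and no E76Q library correlated best with the WT library of its own number. With 3 libraries per group this cannot settle whether same-numbered libraries share more than a number. A fit with the replicate block gave 2868 risen and 2854 fallen, 1161 higher and 2807 lower than in E76K, and 1378 higher and 1970 lower than in the other mutants. Depth is unknown from TPM, so genes near 0 carry no counting limit.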
